A study of Rattus norvegicus with 12 samples.

Results

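The comparison described here is NRG1 against vehicle in iAMs, conditionally immortalized rat atrial myocytes. The libraries were chosen by their labels, which put 4 in the NRG1 group and 4 in the vehicle group, 8 of the 12 libraries in the series. The other 4 libraries come from iAMs given the small molecule EF-1 and serve as a reference level. They were also part of the joint fit that set the filter and the spread behind the calls. The question is how widely, how strongly and from which starting levels the cells changed their RNA in response to the natural ligand.

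iAMs derive from neonatal rat atrial cardiomyocytes that received, by lentivirus, a simian virus 40 large T antigen under doxycycline control and were then selected with puromycin into a stable line. They divide with doxycycline and differentiate once it is removed. The cells of all 8 libraries were labelled wild type, were kept in flasks without doxycycline for 9 days, and were then exposed for 16 h at 37 °C to 0.1 µM NRG1 or to vehicle. The labels give the vehicle as PBS, and the study's methods add that every well, vehicle and NRG1 alike, held the same concentration of DMSO. The EF-1 cultures received 32 µM of that compound for 16 h. The cells are thus a single immortalized line studied at 1 dose and 1 time. The deposited files do not pair identifiers with gene names, so the labelled cell type could not be checked against its markers and the ERBB receptors could not be located in the tables. Each library is a bulk culture, in which fewer cells of a kind and less RNA per cell cannot be told apart.

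Neuregulin-1 is a growth factor of the epidermal growth factor family that in the heart comes mainly from the endothelium. It binds ERBB3 and ERBB4, and in cardiomyocytes ERBB4 pairs with itself or with ERBB2, which has no ligand of its own. The activated receptors signal through the PI3K/Akt and MAPK/ERK cascades, pathways known for their part in cardiomyocyte survival, growth and metabolism.

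PolyA RNA was sequenced from 4 libraries per group. Vehicle libraries are numbered 1 to 4, NRG1 libraries 5 to 8, and EF-1 libraries 9 to 12. The gene table held 18121643, 27220266, 12216228 and 19280141 counts in the vehicle libraries and 24397526, 27467198, 27099847 and 21384901 in the NRG1 libraries. Vehicle library 3 was the smallest and NRG1 library 6 the largest, and the ranges of the groups overlapped (exact two-sided permutation test with n = 4 a side, p = 0.143, adjusted p = 0.171). With 4 libraries a side, the smallest p that this test allows is 0.0286. The EF-1 libraries, outside these 8, held 14442672, 13763279, 17149059 and 16314633 counts, each fewer than any NRG1 library. Of 19775 deposited genes, 5141 had no count in any of the 8 libraries, 14634 had at least 1 count, and 10997 passed the expression filter of the test. The genes that passed held 99.97% of the counts of these 8 libraries. Levels are given in CPM, the counts of a gene scaled to the library's total with TMM factors.

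NRG1 changed the level of a large part of the expressed genes, in both directions and in similar number. In edgeR's quasi-likelihood test, 1106 of 10997 tested genes rose (10.1%) and 1008 fell (9.17%) at an adjusted p under 0.05 and a log2 fold change of at least 0.58 in size. Without the fold threshold, 3439 genes (31.3%) passed the adjusted p, and 4537 had an unadjusted p under 0.05. That first number, and the splits built on it, move with the model: it was 5546 with a length covariate. On the 8 vehicle and NRG1 libraries alone it was 4109. With a block by library order in 8 libraries it was 6468, against 4092 for the same genes without the block. The covariate and the block were both chosen after seeing the data. Of the 1325 genes that passed the adjusted p with a smaller fold change, 647 lay above and 678 below vehicle. A further 396 genes reached the fold change without passing the adjusted p. The fold threshold fell in a dense stretch, with 292 genes past the adjusted p between 0.58 and 0.66 in size and 355 between 0.50 and 0.58. The NRG1 and vehicle libraries did not overlap for 4090 tested genes (37.2%), among them 1053 of the genes that rose and 949 of those that fell. The median log2 fold change over all tested genes was -0.01, close to 0, where the TMM scaling places the bulk of the genes.

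**Figure D1:**
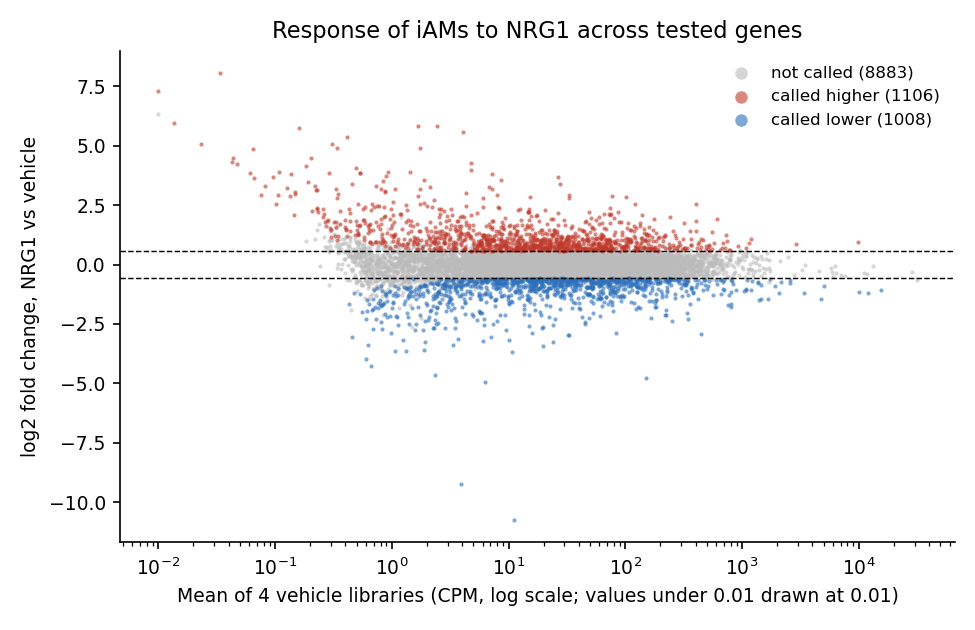
Log2 fold change (NRG1 vs vehicle) of each of the 10997 tested genes against its mean CPM in the 4 vehicle libraries (log scale), with the fold threshold as dashed lines. The 1106 red points rose, the 1008 blue points fell, and the largest fitted rises lie at vehicle levels under 1 CPM.

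Most of the called changes were moderate in size. The median log2 fold change of the genes that rose was 1.01, with quartiles of 0.76 and 1.46 and a median standard error of 0.18. For the genes that fell the median was -0.93, with quartiles of -1.32 and -0.71 and a median standard error of 0.17. Among the genes that rose, 566 (51.2%) passed 2-fold, 144 passed 4-fold, 56 passed 8-fold and 20 passed 16-fold. Among those that fell, 444 (44.0%) passed 2-fold, 95 passed 4-fold, 22 passed 8-fold and 6 passed 16-fold. The 2 largest fitted falls are counted at each of these steps, although their fitted values are no measure of size, as described below. The spread behind these values was small: the median SD of log2 CPM within a group was 0.199 for vehicle and 0.163 for NRG1, or a coefficient of variation of 13.9% and 11.3%.

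The gene that rose with the smallest adjusted p was ENSRNOG00000019587. Its level was 4.08, 2.92, 5.52 and 3.64 CPM in the vehicle libraries and 190.3, 175.5, 212.1 and 172.1 CPM in the NRG1 libraries. Every NRG1 library stood far above every vehicle library, and the 4 NRG1 values lay close together. The means were 4.04 ± 1.1 CPM (SD, n = 4) and 188 ± 18.2 CPM (SD, n = 4), a log2 difference of 5.56 ± 0.18 (SE; edgeR, adjusted p = 2.69e-09). The EF-1 libraries held 5.31 ± 0.688 CPM (SD, n = 4), near the vehicle level. This gene rested on 68 to 77 counts per vehicle library and 3769 to 5946 per NRG1 library.

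ENSRNOG00000010833 started lower still. Its vehicle libraries held 2.88, 1.82, 1.46 and 3.54 CPM and its NRG1 libraries 142.6, 134.3, 102 and 177.6 CPM. NRG1 library 7 was the lowest and library 8 the highest of the treated group, and both lay well clear of vehicle. The mean went from 2.43 ± 0.956 to 139 ± 31.1 CPM (SD, n = 4 each), a log2 difference of 5.82 ± 0.31 (SE; edgeR, adjusted p = 1.14e-07). In the EF-1 libraries it was 8.34, 5.02, 7.85 and 11.2 CPM, above the vehicle libraries and far below the NRG1 libraries.

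Among the genes that fell, ENSRNOG00000028225 had the smallest adjusted p. It held 88.1, 81.0, 84.6 and 78.0 CPM with vehicle and 11.7, 12.4, 9.24 and 11.3 CPM with NRG1. Both groups were tight and did not overlap. The mean fell from 82.9 ± 4.37 to 11.1 ± 1.35 CPM (SD, n = 4 each), a log2 difference of -2.89 ± 0.10 (SE; edgeR, adjusted p = 3.37e-09), against 71.5 ± 1.92 CPM (SD, n = 4) with EF-1. Its EF-1 libraries, at 73.74, 72.52, 70 and 69.85 CPM, lay below every vehicle library and far above the NRG1 libraries. ENSRNOG00000010320 held 35.0, 32.2, 33.1 and 30.6 CPM with vehicle and 4.54, 4.64, 3.64 and 3.93 CPM with NRG1. Again each NRG1 library lay below each vehicle library. Its log2 difference was -2.97 ± 0.13 (SE; edgeR, adjusted p = 2.37e-08), and its EF-1 libraries held 28.3 ± 3.87 CPM (SD, n = 4). What these 4 genes encode is not given by the files.

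**Figure D2:**
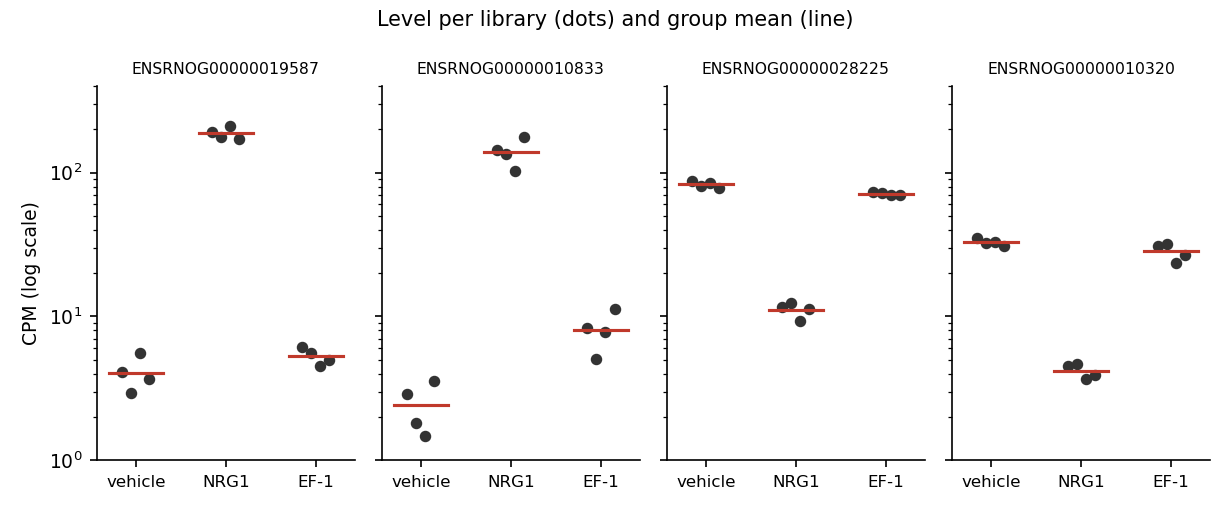
Level in each library (dots, CPM on a log scale) and group mean (line) of the 2 genes that rose and the 2 that fell with the smallest adjusted p. The NRG1 libraries stand apart from vehicle in every panel. The EF-1 means of the falling genes, 71.5 and 28.3 CPM, lie below the vehicle means but nearer to them than to NRG1.

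The largest fitted fold changes rested on groups at or near 0 and need their counts beside them. In the gene with the largest fitted rise (log2 8.06), the vehicle libraries held 1, 0, 1 and 0 counts and the NRG1 libraries 277, 146, 324 and 151. All 4 NRG1 libraries were far above vehicle, and the ratio of count shares was 344 with an exact 95% counting interval from 94.9 to 2840. Another called gene had 0 counts in every vehicle library and 27, 15, 42 and 17 counts in the NRG1 libraries, at least 25.8-fold higher when the vehicle group is set at 3 counts. It was the one gene called higher with no vehicle count at all. Such intervals and limits cover counting error only.

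The 2 largest fitted falls were of another kind. The first of these genes held 0, 11.8, 32.7 and 0 CPM in the vehicle libraries and 0 in each NRG1 library, and the second held 4.57, 0, 8.36 and 2.6 CPM and then 0. In both, at least 1 vehicle library was also at 0, so the groups overlapped, and their fitted log2 values of -10.76 (standard error 3.54) and -9.22 (standard error 2.63) are no measure of size. Estimated counts are uncertain for genes that share reads with near-identical copies, and whether these do was not tested. Among the called genes whose groups did not overlap, the log2 fold change ran from -4.94 to 8.06. Setting the 1 gene that rose and the 2 that fell against a group at 0 to their limits left the medians at 1.01 and -0.93.

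The genes past both thresholds had lower counts in vehicle than the tested genes as a whole. The median vehicle level was 15.1 CPM for the genes that rose, 21.5 CPM for those that fell and 29.8 CPM for all tested genes. Some genes with low vehicle levels passed the filter with the help of another group. Among the 10476 genes that reached the filter's level in all 4 vehicle libraries, the medians were 18.8 CPM for 989 that rose, 23.9 CPM for 976 that fell and 32.5 CPM for all. CPM does not correct for transcript length. With NRG1 the medians were 31.8, 11.2 and 29.7 CPM, and with EF-1 they were 15.4, 22.1 and 30 CPM, near those of vehicle. Without the fold threshold the response did not lean to low counts. The share of genes past the adjusted p lay between 28.1 and 33.5% in each bin of vehicle level under 300 CPM and was 40.4% at 300 CPM and over.

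Among genes past both thresholds, falls outnumbered rises at the highest vehicle levels. At 300 CPM and over, 9.22% of 488 genes rose and 16.2% fell. From 100 to 300 CPM the shares were 7.09% and 8.35%, and from 30 to 100 CPM, the bin with the most genes, 6.52% and 6.63%. Toward lower levels both shares grew, to 9.86% and 8.53% from 10 to 30 CPM, 14.2% and 12.4% from 3 to 10 CPM, and 14.8% and 14.5% from 1 to 3 CPM. The median log2 fold change of genes that rose was 1.18 from 1 to 3 CPM and 0.83 at 300 CPM and over, and that of genes that fell -1.27 and -0.92. Only larger changes can be called at low counts, where the median standard error was 0.28 from 1 to 3 CPM against 0.13 from 30 to 100 CPM. Because vehicle enters both the bins and the comparison, the bins were also drawn on EF-1 levels, where 8.29% rose and 14.8% fell at 300 CPM and over.

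Under 1 CPM in vehicle, 23.4% of the 572 tested genes rose and 7.52% fell, but the filter shapes this bin. Only 99 of the 572 reached the filter's level in all 4 vehicle libraries, and the others passed with the help of libraries from another group. Of the 99, 18 rose and 15 fell, and of the others 116 rose and 28 fell. No excess of rises over falls is therefore read from this bin.

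**Figure D3:**
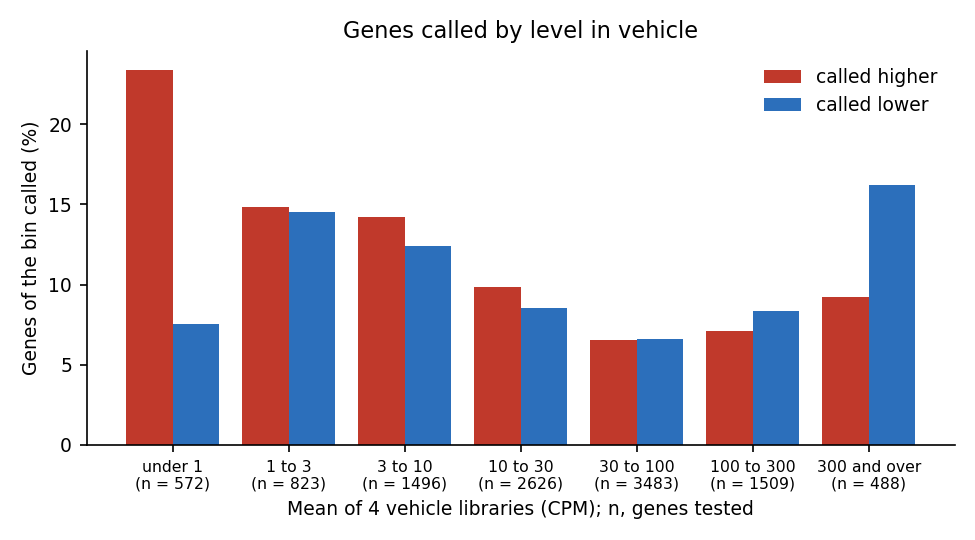
Percent of tested genes called higher (red) and lower (blue) with NRG1 in each bin of mean vehicle CPM. Falls took 16.2% of the highest bin and rises 9.22%, while the excess of rises under 1 CPM comes mostly from genes that passed the filter through another group.

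Over all tested genes 10.1% rose and 9.17% fell. Of the 20 genes with the most counts in vehicle, 5 fell and 1 rose. Of the first 100, 25 fell and 6 rose, and of the first 500, 80 (16%) fell and 45 (9%) rose. Ranked by EF-1 level instead, 5 fell and 2 rose of the first 20, 22 and 6 of the first 100, and 75 and 42 of the first 500. The 500 genes ranked by vehicle held 50.2% of the vehicle counts. None of the 20 genes so ranked moved by more than 1.44 on the log2 scale, and the median size of change among them was 0.43.

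A gene was counted as switched on when every vehicle library was under 0.5 CPM and every NRG1 library at or above 1 CPM, and as switched off in the reverse case. In the smallest and largest library, 1 CPM stood for 12.2 and 27.5 counts. Over all deposited genes, 16 were switched on and 5 off, and each of these was among the called genes. Their levels stayed low: the median of the 16 with NRG1 was 2.56 CPM and the highest 10.7 CPM, and the highest vehicle level of the 5 was 6.22 CPM. The highest of the genes switched on held 0.109, 0.380, 0 and 0.156 CPM with vehicle and 12.8, 8.63, 11.3 and 10.1 CPM with NRG1. That is 2, 10, 0 and 3 counts against 315, 238, 318 and 222, with no overlap. The highest of the genes switched off held 7.67, 5.28, 7.47 and 4.47 CPM with vehicle and 0.486, 0.109, 0.143 and 0.0457 CPM with NRG1, and its EF-1 libraries held 9.41, 11.9, 10.2 and 7.37 CPM. In the EF-1 libraries, 12 of the 16 genes switched on were under 0.5 CPM throughout, and 3 of the 5 switched off were at or above 1 CPM throughout.

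The numbers of switched genes hang on the limits. With 0.25 and 2 CPM they were 2 and 0, with 0.1 and 1 CPM they were 1 and 0, and with the group means in place of every library they were 58 and 49. The 5 genes switched off became 8 without vehicle library 4 and 11 without NRG1 library 6. Once every library was thinned to the smallest total, 19 were switched on and 8 off. Together, the 16 genes summed to 3.19 CPM with vehicle and 71.0 CPM with NRG1, or 0.00723 ± 0.000931% of the NRG1 counts (SD, n = 4). Genes seen in a single group were also more numerous with NRG1, and neither excess was tested. Of the 8 libraries, 835 genes had counts in NRG1 libraries alone and 509 in vehicle libraries alone. At equal depth, after thinning, the numbers were 719 and 574. With at least 1 count in every library of the group that had counts, they were 37 and 6 as deposited and 29 and 12 after thinning. A count of 0 means only that the gene was not detected at this depth.

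The called genes held a sizeable part of the counted RNA. Genes that rose held 7.41, 7.40, 7.07 and 7.02% of the counts in the vehicle libraries and 15.6, 14.9, 15.7 and 15% in the NRG1 libraries. Genes that fell held 15.5, 14.2, 14.5 and 14.4% with vehicle and 7.5, 7.89, 7.03 and 7.47% with NRG1. The shares of both lists were nearly exchanged between the groups, from 7.23 ± 0.211% to 15.3 ± 0.412% and from 14.7 ± 0.600% to 7.47 ± 0.348% (SD, n = 4 each). The lists were chosen on the same libraries, so these shares describe the calls and carry no test. In the EF-1 libraries the lists held 7.47 ± 0.438% and 14.1 ± 0.903% (SD, n = 4). The 1325 genes with smaller changes held 12.4 ± 0.368% with vehicle and 12.7 ± 0.104% with NRG1. The 7558 tested genes that did not pass the adjusted p held 65.6 ± 1.07% and 64.5 ± 0.324%.

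**Figure D4:**
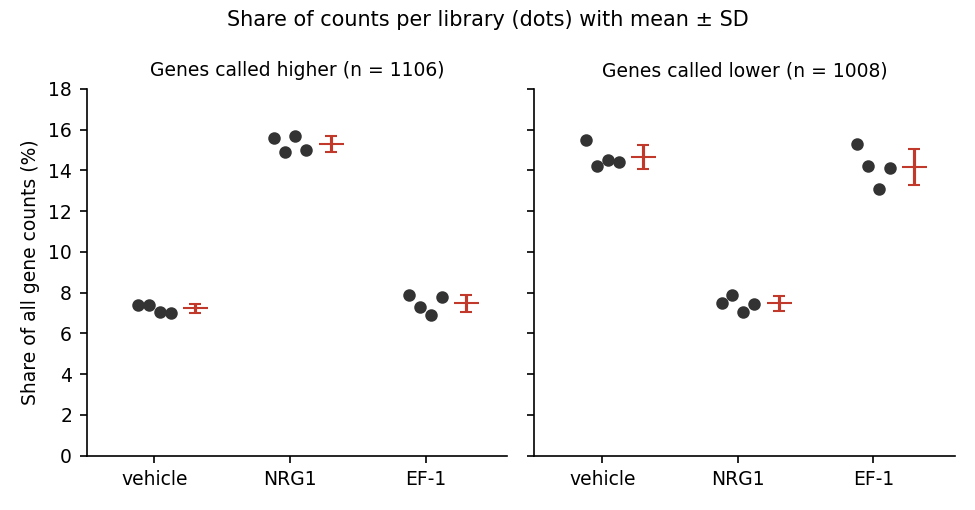
Percent of all gene counts held by the 1106 genes called higher and the 1008 called lower, in each library (dots) with the group mean and SD (red). NRG1 libraries lie at 14.9 to 15.7% for the first list and 7.03 to 7.89% for the second, and EF-1 libraries lie near vehicle.

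Gains and losses of counts differed in how they were divided among genes. Over the genes that rose the mean gain summed to 77480 CPM, of which the 10 largest gave 27.5% and 50 genes gave 50%. Over the genes that fell the loss summed to -73626 CPM, of which the 10 largest gave 43.1% and 17 genes gave 50%. The loss was thus carried by fewer genes. The near balance of both sums is not read as a result. CPM is relative to each library's total, here adjusted by TMM factors, so gains and losses are not independent. They need not cancel, since the TMM factors and the genes outside both lists can also differ between groups. The 10 largest gains held 1.81 ± 0.183% of vehicle counts and 4.02 ± 0.274% of NRG1 counts, and the 10 largest losses 5.94 ± 0.393% and 2.83 ± 0.246% (SD, n = 4 each).

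The largest gain came from a gene at 10900, 11500, 9260 and 7780 CPM with vehicle and 22300, 18800, 16700 and 18900 CPM with NRG1. The groups did not overlap, although the log2 difference was only 0.96 ± 0.15 (SE; edgeR, adjusted p = 0.00036). The gene with the third largest gain started much lower, at 469, 486, 459 and 208 CPM, and reached 3310, 1600, 2460 and 2230 CPM, a log2 difference of 2.56 ± 0.33 (SE; edgeR, adjusted p = 6.44e-05). Its EF-1 libraries, at 699, 1170, 1350 and 654 CPM, lay between both groups. The largest loss came from a gene at 17100, 15100, 14400 and 15300 CPM with vehicle and 7580, 8530, 6020 and 7660 CPM with NRG1, a log2 difference of -1.06 ± 0.15 (SE; edgeR, adjusted p = 0.00019). The other two genes among the 3 largest losses were likewise abundant in vehicle, at 11900 ± 2130 and 9950 ± 788 CPM, and fell to 5270 ± 661 and 4480 ± 328 CPM (SD, n = 4 each).

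Counts lay over more genes in the NRG1 libraries, short of the threshold of the test. The number of genes that together hold 50% of a library's counts was 534, 438, 531 and 480 with vehicle and 571, 559, 616 and 558 with NRG1. Every NRG1 library was above every vehicle library, but the adjusted p was not under 0.05 (difference 80.2, exact permutation p = 0.0286, adjusted p = 0.0571 over 6 measures, n = 4 a side). This p is the smallest that the test allows. Full separation in 1 measure by itself could therefore not bring its adjusted p under 0.05. The 100 largest genes of each library held 29.7, 34.6, 30 and 32.8% with vehicle and 27.5, 29.1, 26.1 and 29.1% with NRG1 (difference -3.81, p = 0.0286, adjusted p = 0.0571, exact permutation test). The share of the 10 largest genes overlapped between the groups, at 15.03 ± 2.54% and 11.95 ± 1.37% (SD, n = 4 each; adjusted p = 0.171, exact permutation test). It was 12.6, 18.2, 13.4 and 15.9% in vehicle and 11.2, 13.1, 10.4 and 13.1% in NRG1, so it also differed widely within vehicle. NRG1 libraries also had more genes with at least 1 count, by 278 (p = 0.0286, adjusted p = 0.0571, exact permutation test), but by 78.2 at equal depth (p = 0.114, exact permutation test). Taken in library order, 1 with 5 to 4 with 8, each NRG1 library had the lower share in its 10 largest genes (differences of -1.48, -5.09, -2.94 and -2.81 percentage points) and more genes at equal depth (by 81, 33, 137 and 62). The labels do not pair these libraries, and with 4 pairs the smallest two-sided p of an exact sign-flip permutation test is 0.125, the value both measures had. Without vehicle library 1, the 3 measures at 0.0571 and the share of the 10 largest genes each reached an adjusted p of 0.0429 (exact permutation test), with differences of 93 genes, -4.50 and -3.88 percentage points and 274 genes. With any other single library left out none of these passed, and the adjusted p lay between 0.0571 and 0.274 (exact permutation tests).

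The transcript tables give levels per length. Of 14874 tested transcripts of 31196 deposited, 1354 rose (9.1%) and 1158 fell (7.79%) in edgeR's test on Salmon's read estimates. Their median log2 fold changes were 1.03 and -0.96. In TPM, Salmon's abundance per unit of length, the median vehicle level was 7.04 for transcripts that rose, 10.9 for those that fell and 10.1 for all tested transcripts. The transcripts that fell thus lay slightly above the tested median, and the genes that fell lay below theirs in CPM. Feature and scale both differ between these comparisons, and their parts were not separated. At 300 TPM and over, 4.24% of transcripts rose and 11.7% fell. The share of all TPM held by transcripts that rose went from 5.41 ± 0.363% to 12.1 ± 0.540%, and that of transcripts that fell from 10.7 ± 0.742% to 5.45 ± 0.344% (SD, n = 4 each).

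Transcripts that rose were somewhat longer than the tested transcripts, and those that fell were close to them in length. The median annotated length was 2486 bases for transcripts that rose, 2285 for those that fell and 2227 for all tested. The share that rose was 3.21% under 500 bases, 6.21% from 500 to 1000, 7.99% from 1000 to 2000, 10.3% from 2000 to 4000 and 10.7% at 4000 bases and over. The share that fell was 4.37, 4.95, 8.42, 8.11 and 7.93% in the same bins, with no growth past 1000 bases. At equal TPM a longer transcript collects more reads, and the part of this in these shares was not tested. Removing each library's trend of reads on length gave 1441 transcripts higher and 1187 lower.

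At limits of 0.5 and 1 TPM, 27 transcripts were switched on and 15 off, with median levels of 2.09 and 1.56 TPM in the group that had them. The highest of those switched on was at 0 in the 4 vehicle libraries and at 35.8, 31.3, 43.1 and 38.6 TPM with NRG1. It is a short transcript of 547 bases, at least 397-fold higher against 3 reads in the vehicle group, and it was at 0, 0, 10.5 and 4.93 TPM in the EF-1 libraries. The second was at 0 in all vehicle and EF-1 libraries and at 24.0, 29.7, 32.8 and 18.1 TPM with NRG1, at least 1100-fold higher on the same terms. The highest of those switched off held 8.85, 6.44, 7.29 and 4.41 TPM with vehicle, 0 in each NRG1 library and 4.02, 7.86, 1.86 and 3.90 TPM with EF-1. These transcript levels come from a division of reads among the isoforms of a gene, which adds an error that the deposited tables do not give. The first 2 transcripts switched on had 341 to 485 and 616 to 1448 reads per NRG1 library. The highest gene switched on had 222 to 318 counts. A transcript switched on therefore need not mean that its gene was switched on, and this was not tested.

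The direction of the calls carried over to libraries left out of the fit that made them. Genes were called after leaving out 1 vehicle and 1 NRG1 library, and their levels were then compared in those 2 libraries, for each of the 16 pairs. The genes were limited to those past the filter on all 12 libraries, and the levels kept the TMM factors of that fit. Of the genes called higher, 91.7 to 99.7% (median 98.7%) were higher in the NRG1 library that was left out, with median log2 differences between 0.84 and 1.15. Of the genes called lower, 94.1 to 99.9% (median 98.6%) were lower, with medians between -1.03 and -0.77. Among genes not called, 47.1 to 50.6% were higher. The shares of 91.7% and 94.1% both came from vehicle library 2 with NRG1 library 5. The pairs share libraries and are not independent of each other.

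Libraries also differed within their groups. The slope of log2 reads per doubling of transcript length, relative to the mean of all libraries, was -0.0933, 0.188, -0.0162 and 0.134 in vehicle and -0.0412, 0.167, 0.0706 and 0.143 in NRG1. These 2 groups overlapped (difference 0.0317, adjusted p = 0.743, exact permutation test). EF-1 libraries 9, 10 and 11 were at -0.117, -0.324 and -0.234, below every vehicle and NRG1 library, and EF-1 library 12 was at 0.122. What this does to EF-1 as a reference level was not tested. Among the vehicle and NRG1 libraries, 1, 3, 5 and 7 had the lower slopes, and a comparison of these 4 alone called 1239 genes higher and 1080 lower. The 4 vehicle and NRG1 libraries with higher slopes alone gave 1045 and 829. Within each group, fewer genes held 50% of counts in the higher-slope libraries. The numbers were 438 and 480 against 534 and 531 in vehicle, and 559 and 558 against 571 and 616 in NRG1. The part of the slope in this measure was not tested. With the slope as a covariate, 5546 genes passed the adjusted p at any fold change, and 1217 rose and 1078 fell past both thresholds. With the 8 libraries blocked by their order within each group, 6468 passed at any fold change, against 4092 without the block, and 1221 rose and 1134 fell. The comparisons by slope and the block were chosen after seeing the data. The sequencing run, which the study's own fit took into account, is not given in the labels, and its part in these values was not tested. The study calls its iAM libraries biological replicates where it compares EF-1 with vehicle, but neither it nor the labels say whether the 4 libraries of a group came from separate cultures. The p-values measure the spread between these libraries.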

How the data were processed

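The authors quantified reads with Salmon on the Rnor_6.0 transcriptome and obtained gene values through tximport, scaled by average length. The deposited gene table holds an estimated count per gene and library as whole numbers, and the deposited transcript tables hold Salmon's estimated count, TPM, and annotated and effective length in bases. The authors tested with DESeq2 and a sequencing-run covariate, which was not used here because the labels give no run. Groups came from the labels, and 0 columns were left unmapped.

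Differences were tested two-sided with the quasi-likelihood method of edgeR 4.0.16 (R 4.3.3; TMM factors, filterByExpr at min.count 10, robust), fitting all 12 libraries jointly with Benjamini-Hochberg adjustment over all tested features. Calls needed an adjusted p under 0.05 together with a log2 fold change of 0.58 or more in either direction. DESeq2 1.42.0, limma 3.58.1 and sva 3.50.0 served for alternatives, and scipy 1.17.1 for exact permutation tests, adjusted over 6 measures, and exact 95% counting intervals. The SD of log2 CPM used a pseudocount of 0.1. Slopes used transcripts with 500 bases or more and, on average, 50 reads or more. Ratios against a group at 0 used 3 counts in that group. Total gene counts ranged from 12216228 to 27467198 per library.

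Identifiers were named by rule: called, without overlap between groups, smallest adjusted p, at most 2 that rose and 2 that fell, since no names could be matched. Gene lists and marker lists were therefore not run. Other genes are described by rank. The members and lists were chosen with earlier results of these data known. Alternatives covered normalization, test, filter, libraries, covariates, limits of the switches and leaving out each library.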

Additional observations from a re-analysis of the deposited data

Results flagged for a closer look

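Among 36 groups of 4 values examined, 3 values, from NRG1 library 7 and vehicle library 1, lay far from the others of their group, and about 1 in 20 such groups would do so by chance. NRG1 library 7 had 13058 genes with at least 1 count, against 12848 to 12879 in the other NRG1 libraries. In vehicle library 1, the 1325 genes that passed the adjusted p but not the fold threshold held 13.0% of counts, against 12.2 to 12.3% in the other vehicle libraries. In the same library, tested genes that did not pass the adjusted p held 64.0% of counts, against 66 to 66.3%.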

How the results depend on the processing

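The numbers of genes and transcripts that rose or fell past both thresholds stayed within 1.5 times of those reported under each alternative run. Across the fits that each left out 1 of 12 libraries, genes higher ranged from 1038 to 1162, genes lower from 840 to 1073, genes at any fold change from 2701 to 4065, transcripts higher from 1130 to 1397 and transcripts lower from 1009 to 1296. In all 12 of these fits, 895 of the 1106 genes that rose and 710 of the 1008 that fell kept their call, and 1036 and 861 did so in each of 6 further settings of normalization, test, filter, libraries and surrogate variable. DESeq2 gave 1164 higher and 1042 lower, and library size alone 1188 and 925. With only the 8 vehicle and NRG1 libraries in the fit, 4109 genes passed at any fold change.

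With the length slope as a covariate, chosen after seeing the data as were the comparisons by slope, the thinned switches and the left-out pairs, 5546 genes passed at any fold change. The cause was not tested. Genes switched on numbered 2, 1 and 58 and off 0, 0 and 49 with limits of 0.25 and 2 CPM, 0.1 and 1 CPM, and group means, which follows from stricter or looser limits. Thinning gave 19 switched on and 8 switched off. Leaving out single libraries gave 18 to 22 on and 6 to 11 off, since fewer libraries must pass. Over the same fits the difference in genes detected ranged from 204 to 338, in the share of the 10 largest genes from -3.88 to -2.02, in that of the 100 largest from -4.50 to -2.88, and in genes that hold 50% of counts from 61 to 93. The labels share no library numbers between groups and state no pairing, so whether the libraries are paired is not known. A replicate block by library order, chosen after seeing that libraries in this order deviate together, gave 1221 genes higher, 1134 lower and 6468 at any fold change in 8 libraries, against 4092 for the same genes without the block. Of those past both thresholds, 1096 and 1000 were among the 1106 and 1008. The cause of the larger number was not tested. Within the same pairs no library measure passed 0.05, which 4 pairs cannot reach. Depth limits the genes under 1 CPM, where a gene has under 27.5 counts in the largest library.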

Other observations

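Deviations from the group mean in log2 CPM were related between certain vehicle and NRG1 libraries. Across the 10997 tested genes, which are not independent replicates, Pearson's r was 0.493 for vehicle library 1 with NRG1 library 5, 0.540 for 2 with 6, and 0.324 for 4 with 8. Vehicle library 3 was related about equally to NRG1 libraries 5 (0.263) and 7 (0.235). The other values above 0 were 0.204 for 1 with 7, 0.207 for 2 with 8 and 0.218 for 4 with 6. Every value above 0 thus lay among the lower-slope libraries (1 and 3 with 5 and 7) or among the higher-slope libraries (2 and 4 with 6 and 8). The lowest of the 16 values was -0.460, for vehicle library 2 with NRG1 library 5. Deviations within a group sum to 0, so some values below 0 follow from those above it. The labels do not tie libraries of different groups to each other.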
